A study of Mus musculus with 12 samples.

Results

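The genes described here encode the transcription factor NRF2, its inhibitor KEAP1 and 8 enzymes or transporters of the antioxidant system that are known targets of NRF2. The set of 10 genes was Nfe2l2, Keap1, Hmox1, Nqo1, Gclc, Gclm, Slc7a11, Txnrd1, Srxn1 and Gsr, and its members were found as the probes whose gene symbol in the platform annotation is one of these. The rule found 16 of the 25697 probes on the array. These belong to 9 of the 10 genes, each with at least 1 probe that passed the filter on dim probes and was thus among the 8891 genes tested. Gsr was not analysed here. The samples were RNA of fibroblasts made from female C57BL/6 mouse embryos and made immortal by SV40 large T antigen. The labels place the embryos at stage E13.5 for 1 sample and at a different decimal for every other sample, up to E13.20. The field counts up from sample to sample as a spreadsheet fill would, so the stage of each sample is uncertain. A WT clone with normal β1 integrin and a YYFF clone with a mutated β1 integrin were each sampled with no laminin plating (L0), with 4 rounds of it (L4) and with 8 rounds (L8), with 2 arrays in each of the 6 groups. In a round the cells spent a night on laminin, a matrix bound through β1 integrin, in medium without serum, and were then given normal medium. On such a matrix the YYFF cells cannot complete cytokinesis, per the labels' protocols, and after the rounds all cells grew on plastic. All 6 groups share the strain, the sex and the large T antigen, which binds p53 and Rb proteins. A single clone stands for each genotype, and cells with more rounds were also longer in culture, so genotype and clone, and rounds and time in culture, cannot be told apart.

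KEAP1 holds NRF2 in the cytoplasm and delivers it to a CUL3 ubiquitin ligase, so that NRF2 is made and destroyed continuously. Oxidants and electrophiles modify cysteines of KEAP1. NRF2 then escapes, enters the nucleus, pairs with a small MAF protein and binds antioxidant response elements in the promoters and enhancers of its target genes. Because this control acts on the NRF2 protein, the transcript of Nfe2l2 itself is not a measure of NRF2 activity. Several targets also answer to other factors: Hmox1 is repressed by the heme-binding factor BACH1, and Slc7a11 is induced by ATF4 when amino acids are short.

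On an array 40.4% to 45.8% of probes were above background, and the replicates of a group correlated across genes with r of 0.987 to 0.994. The YYFF L8 group held the low end of both, with the lowest share on its replicate 2. Its replicate 1 had the lowest median non-normalized signal, 66.6 against 78.1 to 87.0 on the other arrays. Of 10 fibroblast markers, 9 were on the array and 6 were above background on all 12 arrays. Thy1 was above background on 0 arrays, Col1a2 on 7 and Pdgfra on 10. The markers did not move together: in the YYFF clone the mean log2 signal at L0, L4 and L8 was 9.36, 5.73 and 5.31 for Pdgfra, 11.45, 10.66 and 9.71 for Col1a1, 6.05, 9.09 and 9.49 for Dcn, and 13.79, 14.20 and 14.13 for Vim. Summed over the fibroblast markers, the non-normalized signal was 13084 to 13228 in WT L0, 15114 to 18444 in WT L4 and 15829 to 16007 in WT L8. In the YYFF clone it was 18424 to 21735 at L0, 25346 to 25822 at L4 and 20731 to 22368 at L8. Vim, the brightest of these genes with mean log2 signals of 13.15 in WT L0 and 14.20 in YYFF L4, weighs most in such a sum. None of 8 macrophage markers on the array was above background on any array, and their summed signal of 824 to 1037 was that of background. At most 1 endothelial (Tek), 3 epithelial (Cdh1, Krt8, Krt14) and 2 erythroid markers (Klf1, Hbb-bt) were above background, on 7 or fewer of the 12 arrays. The part of these marker levels in the results below was not tested.

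Levels below are log2 of the background-corrected, quantile-normalized probe intensity. A difference of 1 on this scale is a doubling, and the levels of different probes are not comparable. Values after ± are SEs of a log2 difference from the limma model unless called SD, n is 2 arrays per group, and a gene was called where its Benjamini-Hochberg adjusted p over all 8891 genes was under 0.05. RNA of whole cultures was measured, so fewer cells that express a gene and less RNA of it per cell cannot be told apart.

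RefSeq promoter windows of 250 bases before the transcription start (assembly GRCm38.p6) were available for 7 of the 10 genes, in 9 windows. They were searched on both strands for the core of the antioxidant response element, TGACNNNGC, which occurred in 3 of the 9 windows and in 10.2% of all 32851 windows of that length. A second form, TGANTCAGC, to which NF-E2 type factors and BACH1 bind, occurred in 1 of the 9 and in 1.02% of all windows. The motif TGATGNAA of amino acid response elements, which ATF4 binds with a C/EBP partner, occurred in 1 of the 9 and in 3.45%. The second and the third motif were chosen after the first had been searched. The letters TGACTCAGC satisfy both the first and the second motif and occurred in 0.39% of all windows and in 0 of the 9. Whole windows are shown for Srxn1, Gclm and Slc7a11, which were called in the comparisons below and each hold a different one of the motifs, with the match in capitals. A match is a run of letters: it does not show that a factor binds, and its relation to the expression values was not tested.
Srxn1, chr2:152105274-152105523, plus strand: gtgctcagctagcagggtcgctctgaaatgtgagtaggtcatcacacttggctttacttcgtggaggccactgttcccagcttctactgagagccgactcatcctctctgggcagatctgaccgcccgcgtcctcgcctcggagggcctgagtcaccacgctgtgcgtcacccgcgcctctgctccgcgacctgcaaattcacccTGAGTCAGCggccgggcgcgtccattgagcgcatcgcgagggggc
Gclm, chr3:122245307-122245556, plus strand: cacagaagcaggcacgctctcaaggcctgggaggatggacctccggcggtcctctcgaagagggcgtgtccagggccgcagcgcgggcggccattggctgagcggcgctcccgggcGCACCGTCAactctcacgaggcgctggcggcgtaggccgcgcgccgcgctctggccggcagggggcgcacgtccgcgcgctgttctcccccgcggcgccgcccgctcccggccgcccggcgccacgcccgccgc
Slc7a11, chr3:50443614-50443863, minus strand: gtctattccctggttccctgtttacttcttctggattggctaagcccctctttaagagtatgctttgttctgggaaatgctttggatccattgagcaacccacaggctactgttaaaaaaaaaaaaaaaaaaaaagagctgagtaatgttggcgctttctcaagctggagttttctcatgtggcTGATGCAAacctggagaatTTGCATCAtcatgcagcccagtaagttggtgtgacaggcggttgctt
The Srxn1 window holds TGAGTCAGC at 45 to 37 bases before the start. The Gclm window holds TGACGGTGC on the opposite strand, 134 to 126 bases before the start. The Slc7a11 window holds TGATGCAA on each strand, at 66 to 59 and 47 to 40 bases before the start, as an inverted pair. The other 2 matches to the antioxidant core were in Nfe2l2 and at the second of 3 starts of Txnrd1, and they are shown with 10 bases on either side.
Nfe2l2, chr2:75704885-75704913, minus strand: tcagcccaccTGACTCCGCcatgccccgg
Txnrd1, chr10:82859104-82859132, plus strand: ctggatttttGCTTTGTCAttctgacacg
The windows of Keap1 and Nqo1 hold none of these letters, which says nothing about elements farther from the start. Hmox1, Gclc and Gsr are named only.

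The first question of the design is how repeated laminin plating changed expression within each clone. In the WT clone after 4 rounds, Nqo1 and Srxn1 rose and Hmox1 fell, so that 3 of the 9 tested members were called, where 15.5% of all genes were. After 8 rounds 5 of 9 were called against 36.1% of all genes: Nqo1 and Srxn1 rose, and Keap1, Hmox1 and Slc7a11 fell. Between 4 and 8 rounds only Slc7a11 was called, lower at L8, with 19.6% of all genes called. In the YYFF clone after 4 rounds Nqo1, Gclm and Srxn1 rose and Hmox1 and Slc7a11 fell, 5 of 9 against 31.5% of all genes. After 8 rounds Nqo1 and Srxn1 were higher and Hmox1 and Slc7a11 lower than at L0, 4 of 9 against 36.4%. Between 4 and 8 rounds Hmox1 alone was called, lower at L8, in a comparison with 1.44% of all genes called. With 9 members a single call moves the share by a large step, and whether these counts differ from the share of all genes was not tested. Within a clone the L4 and L8 changes are taken from the same L0 arrays.

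The median change of the 9 members from L0 was -0.03 (L4) and -0.34 (L8) for WT and 0.16 (L4) and 0.27 (L8) for YYFF, while the median over all genes tested lay between -0.01 and 0.03 in these comparisons. The members did not move as a block in any of them, since calls in both directions were present in each.

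**Figure D1:**
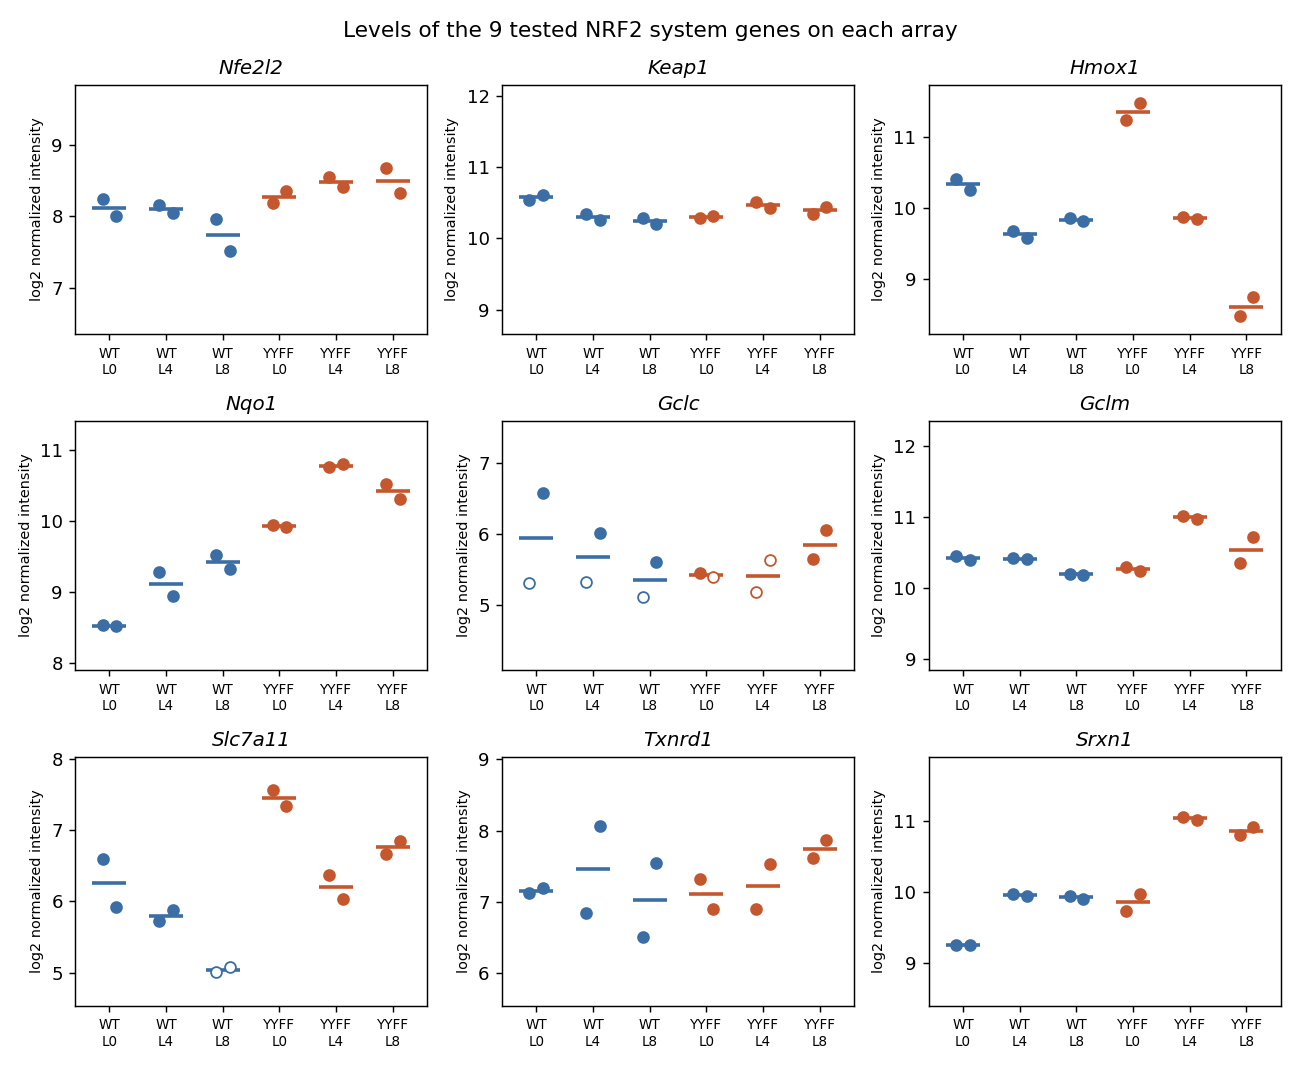
Normalized log2 intensity of the 9 tested genes, 1 panel per gene, with 1 point per array, a bar at the mean of each group and open circles where the probe was not above background; each panel spans the same 3.5 log2 units but starts at its own level. Hmox1 was highest in YYFF L0 and lowest in YYFF L8, Nqo1 and Srxn1 lay higher in L4 and L8 than in L0 in both clones, and the 2 arrays of Txnrd1 and Gclc often lay far apart.

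Between the clones, 4 of 9 members differed at L0, where 27% of all genes did: Hmox1, Nqo1, Slc7a11 and Srxn1, all higher in the YYFF clone. At L4 the members called were Nqo1, Gclm and Srxn1, again all higher in YYFF, 3 of 9 against 37.9% of all genes. At L8 Nfe2l2, Nqo1, Slc7a11 and Srxn1 were higher and Hmox1 was lower in YYFF, 5 of 9 against 37% of all genes. The members' median difference was 0.15 at L0, 0.38 at L4 and 0.71 at L8, and the median over all genes lay between -0.04 and 0.01.

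Among the regulators, the group means of Nfe2l2 spanned 0.76 log2 units. Its level on the 2 arrays of a group was 8.24 and 8.00 in WT L0, 8.15 and 8.04 in WT L4, and 7.96 and 7.52 in WT L8. In the YYFF clone it was 8.19 and 8.36 at L0, 8.55 and 8.41 at L4, and 8.68 and 8.33 at L8. The order of the means ran from YYFF L8 down to WT L8, with 3 of the 5 neighbouring pairs overlapping, and the groups at its ends did not overlap. None of its changes within a clone was called, the widest being WT L8 at -0.38 ± 0.18 (adjusted p = 0.127, 95% interval -0.78 to 0.02). Without WT L8 replicate 1 that change was -0.61 and was called (adjusted p = 0.0456). Nfe2l2 was 0.76 ± 0.18 higher in YYFF than in WT at L8 (adjusted p = 0.00848), a call that was lost without WT L8 replicate 2 (0.066) or YYFF L8 replicate 1 (0.0564), and when only the compared arrays were fitted (0.0638).

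Keap1, the adaptor that brings NRF2 to its ubiquitin ligase, was bright on every array and moved within a narrow range. WT arrays had 10.54 and 10.61 at L0, 10.34 and 10.26 at L4, and 10.28 and 10.20 at L8, while YYFF arrays had 10.29 and 10.31, 10.51 and 10.42, and 10.35 and 10.45. Both WT L0 arrays were thus the highest of the 12, and the WT L4 and L8 arrays overlapped. In the WT clone Keap1 fell by 0.34 at L8 (SE 0.09, adjusted p = 0.0215), and its value at L4 was -0.28 ± 0.09 (adjusted p = 0.0839). The YYFF values were 0.16 ± 0.09 at L4 (adjusted p = 0.227) and 0.10 ± 0.09 at L8 (0.476). The level of Keap1 in YYFF minus that in WT was -0.28 ± 0.09 at L0 (adjusted p = 0.0597), 0.17 ± 0.09 at L4 (0.206) and 0.16 ± 0.09 at L8 (0.234). None of these level differences was called. The YYFF change minus the WT change was called both after 4 rounds (0.44 ± 0.13, adjusted p = 0.0415) and after 8 (0.43 ± 0.13, 0.0363). These calls are close to the threshold: the fall in WT L8 was lost without any 1 of its 4 arrays (adjusted p of 0.0547 to 0.124), the L4 difference without any 1 of its 8 (0.0566 to 0.13) and the L8 difference without 7 of the 8 (0.0615 to 0.116). After scaling by medians the adjusted p was 0.252 for the fall, 0.232 for the L4 difference and 0.333 for the L8 difference, and with only the compared arrays fitted it was 0.0676, 0.0556 and 0.0651.

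All 4 Keap1 probes were above background on enough arrays to be kept, and they correlated with one another over the 12 arrays with r of 0.318 to 0.69. When every probe was fitted, the WT L8 change was negative on all 4. From the brightest to the dimmest probe it was -0.34, -0.25, -0.39 and -0.40, with adjusted p of 0.0298, 0.158, 0.0267 and 0.142. The YYFF L4 change was 0.16, 0.26, 0.38 and 0.16 in the same order, with adjusted p of 0.268, 0.152, 0.0353 and 0.584. The difference between the clones in the L8 change was 0.43, 0.51, 0.48 and 0.14 on the same probes, with adjusted p of 0.0497, 0.059, 0.0535 and 0.737. For the L4 change this difference was 0.44, 0.37, 0.47 and 0.22 and was called on none of the 4 in this fit (adjusted p of 0.0581, 0.18, 0.069 and 0.627). With the mean of the probes neither difference in change was called (0.0978 at L4 and 0.0713 at L8). A second probe of Nfe2l2 and a second probe of Nqo1 were above background on 0 of 12 arrays and were left out.

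**Figure D2:**
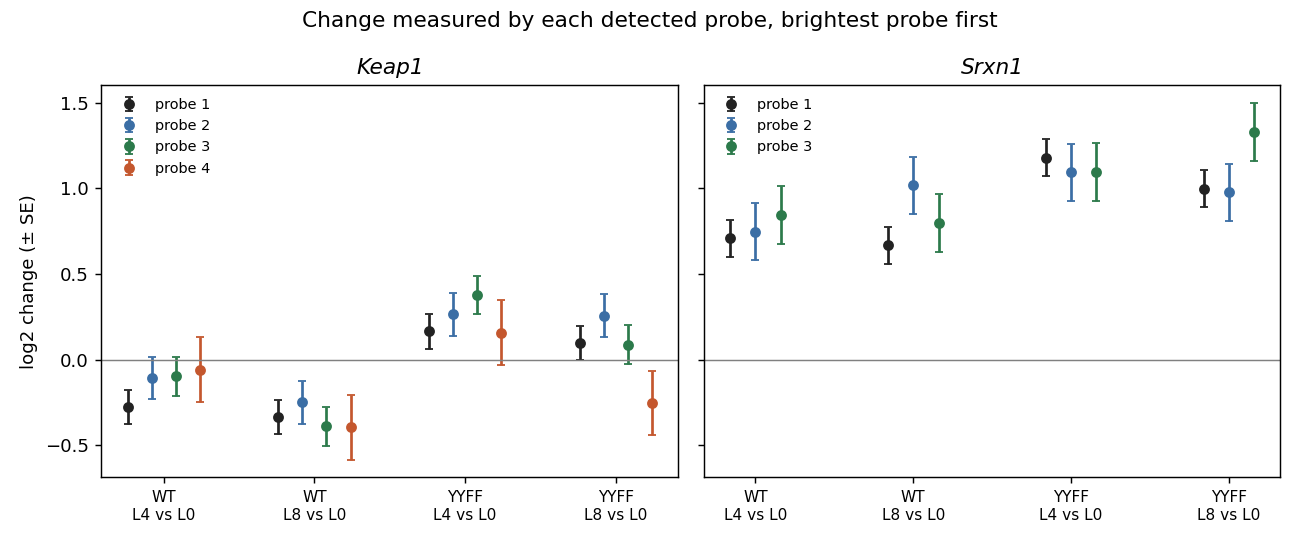
Log2 change from L0 (± SE) at each of the 4 Keap1 and 3 Srxn1 probes, brightest first, in each clone at L4 and L8. The 3 Srxn1 probes lie above 0 in all 4 comparisons, while the Keap1 probes lie below 0 in WT L8 and on either side of 0 in YYFF L8.

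Hmox1 encodes heme oxygenase 1, which opens the heme ring to biliverdin, carbon monoxide and ferrous iron. In the WT clone its level was 10.41 and 10.25 at L0, 9.67 and 9.58 at L4, and 9.86 and 9.81 at L8. In the YYFF clone it was 11.23 and 11.47 at L0, 9.88 and 9.85 at L4, and 8.48 and 8.75 at L8. The YYFF clone thus held both the highest and the lowest level, and of the 5 neighbouring pairs of groups in the order of the means only YYFF L4 and WT L8 overlapped. In the non-normalized intensities the YYFF arrays read 2619.7 and 2485.2 at L0, 1053 and 962.88 at L4, and 344.94 and 441.79 at L8.

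The YYFF clone showed the larger falls of Hmox1, by 1.49 after 4 rounds (SE 0.13, adjusted p = 2.84e-05) and by 2.74 after 8 (SE 0.13, 4.71e-07), so that it was 6.67-fold lower. From L4 to L8 it fell by a further 1.25 (adjusted p = 0.00227). Only 125 of the 8891 genes had a lower value than Hmox1 in YYFF L8 against L0, or 1.41% of them, and 15 genes, or 0.169%, in YYFF L8 against L4. WT cells showed falls of Hmox1 by 0.70 after 4 rounds (SE 0.13, adjusted p = 0.00655) and by 0.49 after 8 (0.0147), and L8 differed from L4 by 0.21 ± 0.13 (adjusted p = 0.301, 95% interval -0.08 to 0.50). The WT L4 fall was lost without WT L0 replicate 1 (adjusted p = 0.0511), and the WT L8 fall was lost without WT L0 replicate 1 (0.0945), WT L8 replicate 1 (0.0547) or WT L8 replicate 2 (0.0763). The WT L4 fall was also not called when only the compared arrays were fitted (0.0528), nor the WT L8 fall after scaling by medians (0.0958). The YYFF falls at L4 and L8 from L0 were called without any 1 of their arrays. The step from L4 to L8 was not called when only its own 4 arrays were fitted (-1.25, SE 0.145, adjusted p = 0.173). In that fit 0 of all genes tested were called.

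Before laminin Hmox1 was higher in the YYFF clone by 1.02 ± 0.13 (adjusted p = 0.000417). At L4 the clones differed by 0.24 ± 0.13 (adjusted p = 0.18, 95% interval -0.05 to 0.52), and at L8 Hmox1 was lower in YYFF by 1.22 (adjusted p = 8.39e-05). The direction of the clone difference was therefore opposite at L0 and L8. The YYFF change minus the WT change was -0.79 ± 0.18 after 4 rounds (adjusted p = 0.0124) and -2.24 ± 0.18 after 8 (2.46e-05). With the arrays scaled by their medians in place of quantiles the L4 difference in change was -0.60 (adjusted p = 0.23).

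**Figure D3:**
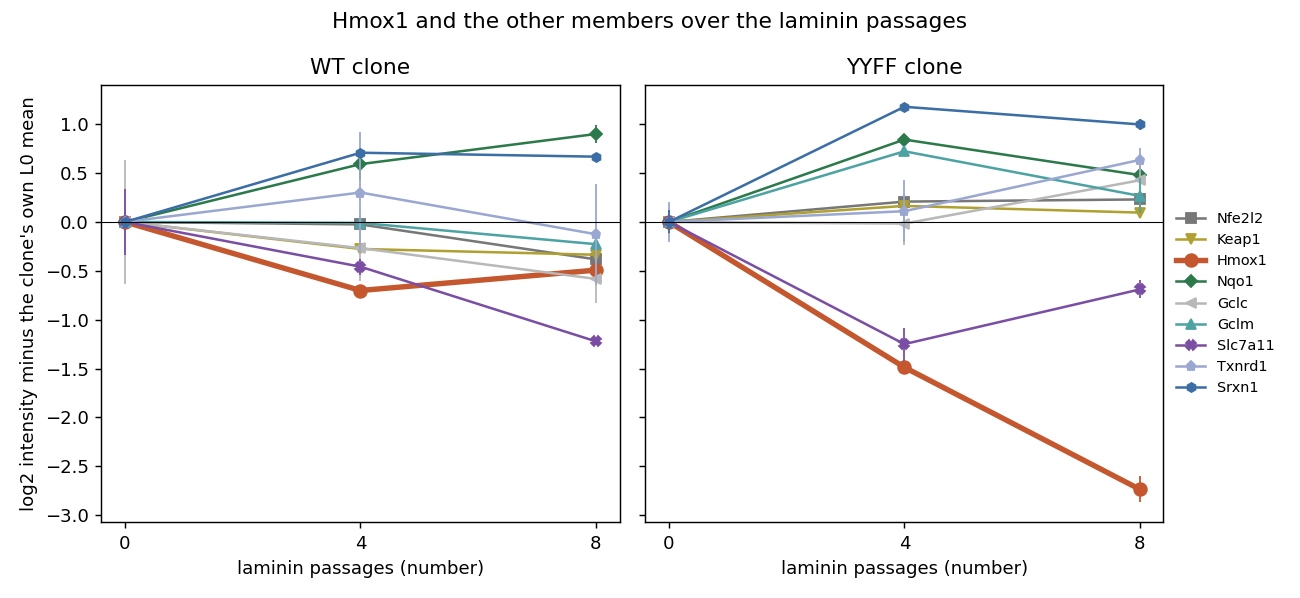
Mean log2 change from L0 of the 9 tested genes at L4 and L8, 1 panel per clone, with vertical lines for the range of the 2 arrays and Hmox1 drawn thick. Hmox1 ends at -0.49 in the WT clone and at -2.74 in the YYFF clone, below every other member in the latter, while Nqo1 and Srxn1 lie above 0 throughout.

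The genes whose pattern was most like that of Hmox1 were taken by Pearson correlation over the 12 arrays, among 1804 genes above background on every array and with group means spread over at least 1 log2 unit. They were Samhd1 (r = 0.98), Cercam (0.952), Fermt2 (0.946), Tmem150a (0.945) and Selenow (0.938). Samhd1 encodes a dNTP hydrolase and Fermt2 the integrin-binding protein kindlin-2. In YYFF L8 Cercam fell by 3.09, Fermt2 by 1.46, Tmem150a by 1.29, Selenow by 1.19 and Samhd1 by 1.07, while their WT L8 values lay between -0.40 (Selenow) and -0.17 (Samhd1). The genes were chosen for their likeness to Hmox1 on these same 12 arrays, so the correlations and these values only describe the choice. None of the other 8 tested members came near: their correlation with Hmox1 ran from -0.546 (Srxn1) to 0.347 (Slc7a11).

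Of the targets that rose, Srxn1 encodes sulfiredoxin, which repairs over-oxidized peroxiredoxins. Its level was 9.27 and 9.25 in WT L0, 9.98 and 9.95 in WT L4, and 9.95 and 9.90 in WT L8. In the YYFF clone it was 9.74 and 9.98 at L0, 11.06 and 11.02 at L4, and 10.80 and 10.91 at L8. Both clones stepped up by L4 and stayed near that level at L8, and YYFF L0 overlapped with WT L8. In WT cells Srxn1 rose by 0.71 ± 0.10 after 4 rounds (adjusted p = 0.00225) and 0.67 ± 0.10 after 8 (0.00119), and in YYFF cells by 1.18 ± 0.10 (3.57e-05) and 1.00 ± 0.10 (8.6e-05), each without overlap of the arrays. With the arrays scaled by their medians the WT L4 rise was 0.66 and was not called (adjusted p = 0.0616).

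The remaining difference for Srxn1 was between the clones. It was higher in YYFF by 0.60 at L0, 1.07 at L4 and 0.93 at L8 (adjusted p of 0.00278, 5.46e-05 and 0.000134), the first not called after scaling by medians (0.0819). The rise was 0.47 ± 0.15 larger in YYFF at L4 (adjusted p = 0.0476), a call lost without 7 of the 8 arrays (0.0838 to 0.153), after scaling by medians (0.218) and with only the compared arrays fitted (0.0684), and at L8 the difference in change was 0.33 ± 0.15 (adjusted p = 0.123, 95% interval -0.0037 to 0.66). The 3 Srxn1 probes correlated with r of 0.89 to 0.936, and all 3 were called higher in each of the 4 comparisons with L0. The higher level of YYFF at L0 was called on the first and the second probe (0.60 and 0.56) and not on the third (0.29 ± 0.17, adjusted p = 0.253). The clone difference in the L4 rise was 0.47, 0.35 and 0.25 on the 3 probes and was called on none of them in the fit of all probes (adjusted p of 0.0634, 0.349 and 0.522), nor with their mean (0.36, 0.0957).

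Nqo1 encodes a quinone reductase that uses NADH or NADPH. WT arrays had 8.53 and 8.52 at L0, 9.28 and 8.95 at L4, and 9.52 and 9.33 at L8. YYFF arrays had 9.95 and 9.92 at L0, 10.76 and 10.79 at L4, and 10.52 and 10.31 at L8. All YYFF arrays lay above all WT arrays, and no 2 groups overlapped.

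Nqo1 rose in WT by 0.59 ± 0.13 at L4 (adjusted p = 0.0175) and 0.90 ± 0.13 at L8 (0.000897), and in YYFF by 0.84 ± 0.13 at L4 (0.00127) and 0.48 ± 0.13 at L8 (0.0203). The WT L4 call was lost without any of 3 of its 4 arrays (adjusted p of 0.0768 and 0.0794 when WT L0 replicate 1 or 2 was left out and 0.0927 when WT L4 replicate 1 was). The YYFF L8 call was likewise lost without YYFF L0 replicate 1 (0.075), YYFF L0 replicate 2 (0.0883) or YYFF L8 replicate 1 (0.1). Neither of these 2 Nqo1 calls held after scaling by medians (0.169 and 0.162) or when only the compared arrays were fitted (0.104 and 0.0598). The clone difference of 1.41 at L0, 1.66 at L4 and 0.99 at L8 (adjusted p of 7.87e-05, 1.6e-05 and 0.000413) was called without any 1 array. The differences between the clones in the change, 0.25 ± 0.19 at L4 (adjusted p = 0.387) and -0.42 ± 0.19 at L8 (0.124), were not called. Nqo1 and Srxn1 had the highest correlation of any 2 members over the 12 arrays (r = 0.916), as a description of the same 6 groups.

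The glutathione branch begins with cystine import by the transporter that Slc7a11 encodes. Its probe was dim, above background on 10 of 12 arrays. WT arrays had 6.60 and 5.93 at L0, 5.72 and 5.88 at L4, and 5.0 and 5.07 at L8, where neither was above background. YYFF arrays had 7.57 and 7.34 at L0, 6.37 and 6.03 at L4, and 6.67 and 6.85 at L8. Both clones were highest before laminin, and of the 5 neighbouring pairs of groups only WT L0 and YYFF L4 overlapped.

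Slc7a11 fell by 1.25 in YYFF L4 (SE 0.21, adjusted p = 0.0019) and by 0.69 in YYFF L8 (adjusted p = 0.0308), the latter a call lost without any 1 of its 4 arrays (0.0578 to 0.159). In the WT clone its value at L4 was -0.46 ± 0.21 (adjusted p = 0.19), and without WT L0 replicate 2 it was -0.79 and called (0.0339). At WT L8 the gene was at least 1.68-fold lower than at L0 (adjusted p = 0.00204) and at least 1.23-fold lower than at L4 (adjusted p = 0.0341), with the second call lost without any 1 of the 4 arrays (0.0765 to 0.143). These bounds set the brighter group against the lowest signal counted as above background. The YYFF clone exceeded the WT clone by 1.19 ± 0.21 at L0 (adjusted p = 0.00311), by 0.40 ± 0.21 at L4 (not called, 0.174) and was at least 2.38-fold higher at L8 (0.00023). Its direction after laminin was opposite to that of Srxn1 in every called comparison with L0, and it shared the fall of Hmox1.

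Glutamate-cysteine ligase, the rate-limiting enzyme of glutathione synthesis, has a catalytic subunit encoded by Gclc and a modifier subunit encoded by Gclm. Gclm had 10.45 and 10.40 in WT L0, 10.42 and 10.41 in WT L4, and 10.21 and 10.19 in WT L8. YYFF arrays had 10.30 and 10.24 at L0, 11.02 and 10.97 at L4, and 10.36 and 10.72 at L8. The YYFF L4 arrays were the highest of all 12 and overlapped with no other group.

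Gclm rose by 0.72 ± 0.12 in YYFF L4 (adjusted p = 0.0017), while its value in WT L4 was -0.01 ± 0.12 (0.97, 95% interval -0.28 to 0.26), and this difference between the clones was called (0.73 ± 0.17, adjusted p = 0.0134; 0.058 after scaling by medians). It was 0.58 ± 0.12 higher in YYFF than in WT at L4 (adjusted p = 0.00463). At L8 the arrays of YYFF lay apart, and the outcome hung on them: the change from L0 was 0.27 ± 0.12 (adjusted p = 0.116) but 0.45 (0.0117) without YYFF L8 replicate 1. Likewise the difference from L4 was -0.46 ± 0.12 (adjusted p = 0.108) but -0.64 (0.0272) without YYFF L8 replicate 2. The clone difference at L8 was 0.34 ± 0.12 (adjusted p = 0.052) and 0.52 without YYFF L8 replicate 1. With all arrays it was called without background correction (0.0407), with the authors' values (0.0431) and under the stricter filter (0.0308). After scaling by medians its adjusted p was 0.413. The L8 difference in change was 0.49 ± 0.17 (adjusted p = 0.0535), called without background correction (0.0427) and under the stricter filter (0.0324) but not after scaling by medians (0.283).

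The Gclc probe was near the limit of detection, above background on 6 of 12 arrays and between 5.11 and 6.57 on all of them. Its 2 arrays in WT L0 read 5.30 and 6.57, every neighbouring pair of groups overlapped, and no comparison was called. The SE of 0.40 on its changes leaves room for a difference of either sign, as in YYFF L8 against L0 at 0.43 (95% interval -0.47 to 1.32). Without WT L0 replicate 1 the WT L8 value was -1.22 and called (adjusted p = 0.0322).

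Txnrd1, the cytosolic thioredoxin reductase, was above background on all 12 arrays but its replicates lay far apart. The WT arrays read 7.12 and 7.19 at L0, 6.84 and 8.07 at L4, and 6.51 and 7.55 at L8, and the YYFF arrays 7.31 and 6.90, 6.90 and 7.53, and 7.62 and 7.87. All 5 neighbouring pairs of groups overlapped. With an SE of 0.43, the largest change from L0 was 0.63 in YYFF L8 (adjusted p = 0.295, 95% interval -0.35 to 1.62), and no comparison was called.

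Set against the rest, Hmox1 went the other way from Nqo1 and Srxn1 in all 4 comparisons with L0. Slc7a11 was lower in all 4 as well, though not called in WT L4 (-0.46). In WT L8 Hmox1 (-0.49) was not the lowest member. Slc7a11, at least 1.68-fold lower, and Gclc (-0.58, not called) lay below it, and Keap1 (-0.34) was also called lower. In YYFF L8 Hmox1 fell by 2.74 while the other 8 tested members lay between -0.69 (Slc7a11) and 1.00 (Srxn1). The difference between the clones in the L8 change was called for 2 of 9 members, Hmox1 (-2.24) and Keap1 (0.43), where 31.8% of all genes were called. At L4 it was called for 4 of 9, lower in YYFF for Hmox1 (-0.79) and higher for Keap1 (0.44), Gclm (0.73) and Srxn1 (0.47), where 23.7% of all genes were called. The median over the 9 members was 0.25 at L4 and 0.49 at L8, against 0.02 and 0.03 over all genes.

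**Figure D4:**
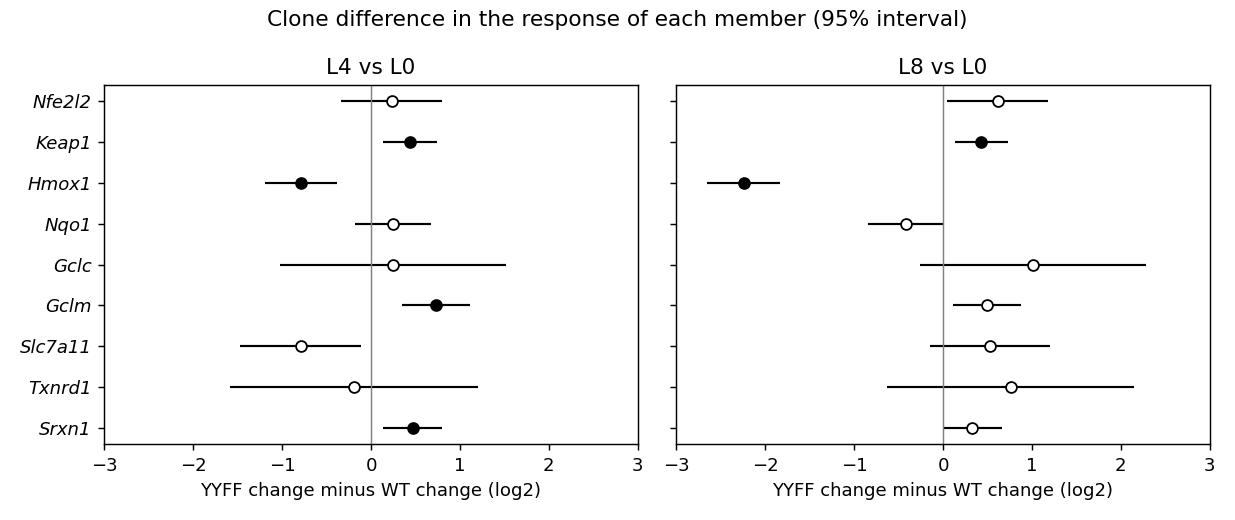
Change from L0 in the YYFF clone minus the change in the WT clone for each tested member at L4 and L8, in log2 units with 95% intervals, filled where the adjusted p was under 0.05. Hmox1 lies at -0.79 and -2.24, Keap1 at 0.44 and 0.43, and the intervals of Gclc and Txnrd1 span more than 2 log2 units.

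The wider pathway was read from 5 lists of other genes, none of them a member, in the L8 comparisons, where 18.4% of all genes were called higher and 17.7% lower in the WT clone and 17.1% and 19.3% in the YYFF clone. Of the regulators and partners of NRF2, 13 of 19 listed genes were tested: 5 rose and 1 fell in WT L8, and 3 rose and 0 fell in YYFF L8, with median changes of 0.27 and 0.22. Bach1, the repressor of Hmox1, rose by 0.85 ± 0.23 in WT L8 (adjusted p = 0.0195), from 6.60 and 7.15 to 7.58 and 7.87. Its value in YYFF L8 was 0.22 ± 0.23 (0.51), and the difference between the clones in this change was -0.63 ± 0.33 (0.181). Sqstm1, the autophagy receptor p62 that binds KEAP1, rose by 0.76 in WT L8 and had -0.36 in YYFF L8 (adjusted p of 0.00765 and 0.132), and that difference was called (-1.13 ± 0.24, 0.00715). Maff, a small MAF partner, rose by 0.68 in YYFF L8 (0.0142), and Btrc, an adaptor of another ubiquitin ligase that acts on NRF2, rose by 0.66 in WT L8 (0.01).

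Heme and iron genes, the neighbourhood of Hmox1, numbered 23 tested of 29 listed, with 7 higher and 2 lower in WT L8 and 5 higher and 2 lower in YYFF L8 (medians 0.19 and 0.03). Slc40a1, the iron exporter ferroportin, was not above background on either array of WT L0 and reached 8.68 and 8.78 in WT L8, at least 9.11-fold higher (adjusted p = 1.52e-07). It was above background on no YYFF array, and at L8 the YYFF level was at least 8.19-fold lower than that of WT (adjusted p = 6.67e-08). Blvrb, a biliverdin reductase, rose in both clones, by 1.04 ± 0.11 in WT L8 and 0.98 ± 0.11 in YYFF L8 (adjusted p of 0.000106 and 0.000119). The constitutive heme oxygenase Hmox2 rose by 0.44 ± 0.11 and 0.57 ± 0.11 (0.0145 and 0.00376), opposite in direction to Hmox1 in both clones. Abcb6, a porphyrin transporter, rose by 0.57 in WT L8 and 1.19 in YYFF L8 (0.0257 and 0.000525).

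Among 18 tested of 31 listed NADPH and detoxification genes, 10 rose and 1 fell in WT L8 and 6 rose and 3 fell in YYFF L8 (medians 0.53 and 0.14). Aldh3a1, an aldehyde dehydrogenase, rose by 2.28 ± 0.13 in WT and 2.86 ± 0.13 in YYFF (adjusted p of 3.26e-06 and 4.14e-07). Idh1, which makes NADPH in the cytosol, rose by 2.53 ± 0.20 and 1.01 ± 0.20 (2.47e-05 and 0.00409), less in YYFF by 1.52 (0.00363). Cbr3, a carbonyl reductase, was the gene of the list that fell in WT, by 1.57 (2.77e-05), and its YYFF value was 0.21 ± 0.13 (0.241). The difference between the clones in this change was called (1.78 ± 0.18, 0.000101).

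Glutathione genes were called in both directions in both clones. Of 21 tested of 27 listed, 10 rose and 5 fell in WT L8 and 4 rose and 7 fell in YYFF L8, with medians of 0.40 and 0.00. Mgst1, a membrane-bound glutathione transferase, rose from background to 7.91 and 8.22 in WT L8, at least 5.75-fold (adjusted p = 1.86e-05), and had 0.46 ± 0.22 in YYFF L8 (0.136). Oplah, the 5-oxoprolinase of the glutathione cycle, rose by 1.32 ± 0.25 in WT L8 (0.00338) and was at least 1.57-fold lower in YYFF L8 (0.00825). Chac1, which degrades glutathione and is a known target of ATF4, fell in both clones, by 1.36 ± 0.10 and 0.80 ± 0.10 (1.33e-05 and 0.000227). Slc7a11 was called in the same direction at L8 in both clones, and a link between these genes was not tested.

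In the thioredoxin list 17 of 22 genes were tested, with 7 higher and 2 lower in WT L8 and 7 higher and 4 lower in YYFF L8 (medians 0.32 and 0.09). Txnip, the thioredoxin inhibitor, fell by 2.30 ± 0.14 in YYFF L8 (adjusted p = 2.59e-06) with a WT value of -0.18 ± 0.14 (0.354). The difference between the clones in this change was called (-2.12 ± 0.20, 6e-05). Sesn2, a stress-induced sestrin, was at least 2.26-fold lower in WT L8 and fell by 2.10 ± 0.16 in YYFF L8 (0.000253 and 1.18e-05). Sod3, the extracellular superoxide dismutase, rose by 0.67 in WT L8 and 1.66 in YYFF L8 (0.0255 and 0.000181).

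**Figure D5:**
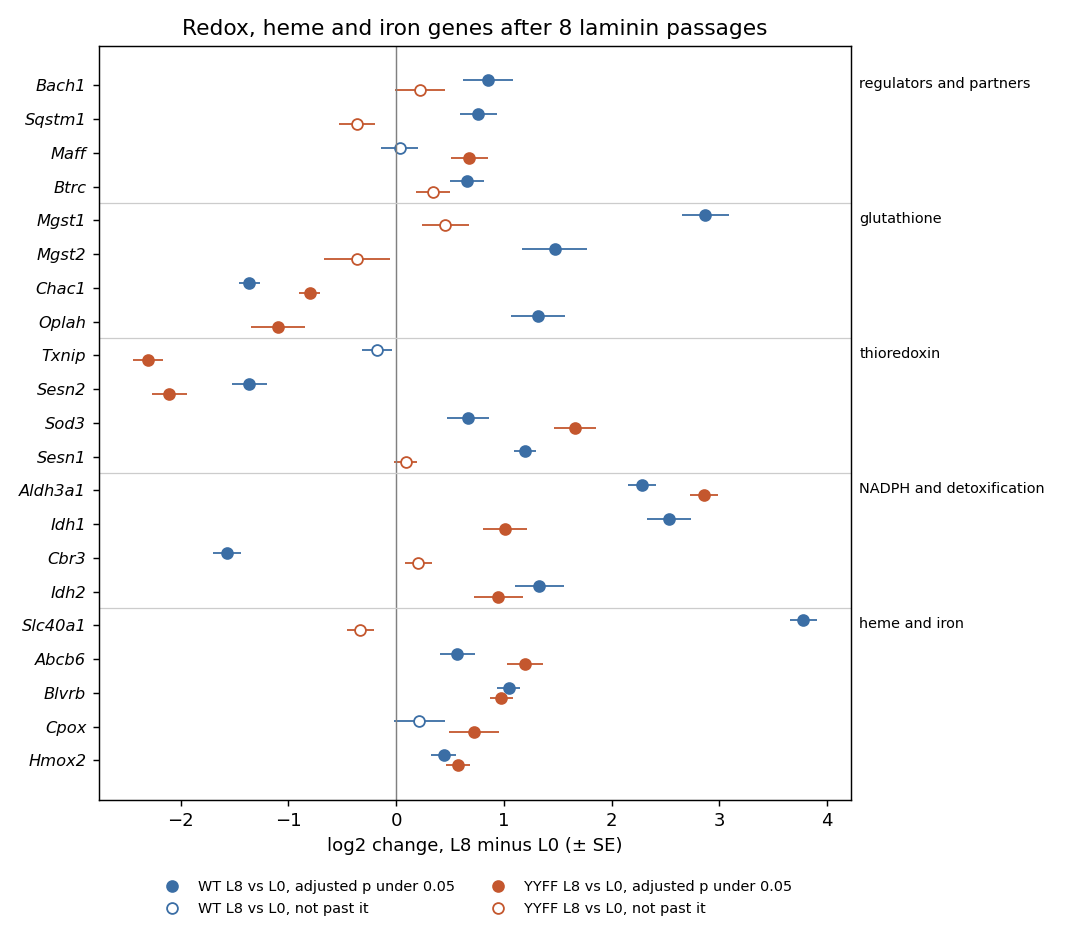
Log2 change at L8 from L0 (± SE) of the named genes of the 5 lists, WT in blue and YYFF in orange, filled where the adjusted p was under 0.05. Slc40a1 and Mgst1 stand at 3.78 and 2.87 in the WT clone and at -0.33 and 0.46 in the YYFF clone, Txnip stands at -2.30 in the YYFF clone, and Aldh3a1 and Blvrb stand above 0 in both; points of genes not above background in a group are fitted values and not bounds.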

How the data were processed

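The authors deposited non-normalized mean bead intensities with detection p-values for 25697 probes, per the file headers, and a processed table of linear intensities. There, 11 of 12 columns share 1 distribution and that of WT L0 replicate 2 holds the raw signals unchanged. The submitters' processing notes name limma, with no version. What software exported the raw signals is not stated in the sources used here.

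Raw signals were corrected by normexp with an offset of 16, using detection p-values to infer the negative controls, then quantile-normalized and put on a log2 scale (limma 3.58.1, R 4.3.3). Probes with detection p under 0.05 on at least 2 of 12 arrays were kept (12974), named through the platform annotation, with symbols updated from RefSeq, and the brightest probe of each of 8891 genes was tested. A limma model with 1 coefficient per group gave all 11 comparisons by eBayes, adjusted by Benjamini-Hochberg over all genes, with 6 residual and 2.91 prior degrees of freedom. Where neither array of a group had a gene above background, its fold is a bound, written "at least N-fold". All 10 members are named, with up to 4 called genes of each list by size of the L8 change, Bach1 and Hmox2 in any case, and the 5 genes most like Hmox1. The members and lists were chosen with earlier results of these data known. The model was tested on simulated data. Alternatives covered background correction, scaling, the filter, the choice of probe, the authors' values, the arrays fitted, a replicate block and each array left out. The number of arrays limits the precision, and since no label says that replicates were separate cultures, p-values cover only the spread of these samples, possibly a technical one. The files name no slide or scan for an array.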

Additional observations from a re-analysis of the deposited data

Results flagged for a closer look

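Some members changed differently in the 2 clones, by the test of the difference itself (YYFF change minus WT change, limma, adjusted over all genes). At 4 rounds the difference was -0.786 for Hmox1, 0.7329 for Gclm, 0.4701 for Srxn1 and 0.4405 for Keap1. At 8 rounds it was -2.244 for Hmox1 and 0.4314 for Keap1. Groups of 2 arrays are too small for a test of single outlying arrays.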

How the results depend on the processing

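No member turned its direction in any called comparison. Of 99 member results, the call differed in 1 with the authors' processed values, 3 without background correction, 3 without the detection filter, 3 with the mean of a gene's probes, 9 with only the compared arrays fitted and 11 with scaling by medians. Under the stricter detection filter it differed in 4 of 77. The counts of called members that moved by over 1.5 times were the following. In WT L4 against L0 the count of 3 became 1 with scaling by medians and 1 with the compared arrays only. Over all genes the calls went from 1376 to 683 and 490 in the same fits. In WT L8 against L0 the count of 5 became 3 with scaling by medians, while calls over all genes went from 3212 to 2068. In WT L8 against L4 the count of 1 became 0 in limma without the filter (2 at an unadjusted p under 0.05) and 0 under the stricter filter (1 unadjusted), where Slc7a11 was not tested. Over all genes the calls went from 1745 to 1689 and 1700 in these fits, which tested different numbers of genes. In YYFF L8 against L4 the count of 1 became 0 with the compared arrays only (4 unadjusted), a fit in which 0 of all genes were called. For the difference between the clones in the L4 change the count of 4 became 0 with scaling by medians (2 unadjusted). It became 2 with the mean of probes and 2 with the compared arrays only. Over all genes the calls went from 2109 to 1295, 2079 and 2103 in these 3 fits. For the L8 change the count of 2 became 1 under each of these 3, with calls over all genes going from 2831 to 1753, 2869 and 2510. The causes were not tested.

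With each array left out in turn, the counts ran from 1 to 3 in WT L4 against L0, 3 to 4 in WT L8 against L0, 0 to 0 in WT L8 against L4 (1 to 3 unadjusted), 5 to 5 in YYFF L4 against L0, 2 to 3 in YYFF L8 against L0 and 1 to 2 in YYFF L8 against L4. Between the clones they ran from 4 to 4 at L0, 3 to 3 at L4 and 4 to 5 at L8, and for the difference in change from 2 to 3 at L4 and 1 to 3 at L8. The array left alone in such a fit is assumed to vary like the other groups. Of 468 such member results, 46 lost and 11 gained a call. The replicate numbers of the titles match those of the descriptions in 3 of 6 groups. Same-numbered arrays of different groups correlated in their deviations with r of 0.0248 to 0.354, above 0.1 in 13 of 15 pairs of groups, and with the descriptions' numbers from -0.354 to 0.232, above 0.1 in 5 of 15. All 15 values were positive under the titles' numbers, a hint of shared numbers, but pairing was accepted only if every value was above 0.1, and no label names what a number shares. A fit with the replicate number as a block changed 1 call. It was that of Nfe2l2 for the difference between the clones in the L8 change (0.61, adjusted p = 0.0487). Signal over background limits Gclc and Slc7a11, whose probes were above background on 6 and 10 of 12 arrays.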
